A study of Mus musculus with 12 samples.

Results

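The genes described here are the mouse Wnt ligands, the proteins that acylate and secrete them, their receptors and coreceptors, and the secreted proteins that tune them. Members were taken by gene symbol: all Wnt ligand genes, Wls and Porcn, the Frizzled receptors Fzd1 to Fzd10, the coreceptors Lrp5 and Lrp6, the alternative receptors Ror1 and Ror2, the Dkk receptors Kremen1 and Kremen2, the R-spondins, and the inhibitors of the Dkk, Sfrp and Wif families. This gave 50 of the 55401 genes listed in the deposited table. Of these, 23 reached at least 10 normalized counts in at least 6 of the 12 libraries and were tested, 16 had reads but stayed under that minimum, and 11 were at 0 in every library.

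RNA was sequenced from airway organoids grown in basement membrane extract from epithelial cells of adult C57BL/6J mouse lungs, with a lentiviral H2A-mCherry reporter under a p63 promoter in both groups. In the ablation group (6 dishes of 45 organoids), 10 neighboring cells of each organoid were destroyed with a femtosecond laser, while the control group (6 dishes) had no cells ablated. All dishes were harvested 4.5 h after the treatment. The growth medium contained supernatant of L-WRN cells, a mouse fibroblast line that secretes Wnt3a, R-spondin 3 and noggin. It was exchanged for FluoroBrite DMEM, for which no supplement is named, before the laser treatment. All groups had thus been kept on external Wnt ligand and R-spondin until then. Each ablation dish has a control dish with its number, passage and day of culture, and these 6 pairs (1, 3, 4, 5, 6 and 7) fall into library sets of 3 pairs each, with pairs 1, 3 and 5 in set 1 and pairs 4, 6 and 7 in set 2. The titles of controls 4, 6 and 7 contain the word ablation although their treatment label says control, and they were taken as controls. Libraries summed to between 27297950 and 28504390 normalized counts. In bulk RNA of whole organoids, fewer cells that express a gene and less RNA of it per cell cannot be told apart.

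Wnt proteins are lipid-modified by the acyltransferase Porcn, carried to the cell surface by Wls, and bind a Frizzled receptor together with Lrp5 or Lrp6, after which beta-catenin escapes degradation and acts with TCF/LEF factors on target genes. Other Wnt proteins signal through Frizzled or Ror receptors to planar polarity and cell movement without beta-catenin. R-spondins bind Lgr receptors and remove the ligases Rnf43 and Znrf3, which otherwise clear Frizzled from the surface, whereas Sfrp and Wif proteins trap ligands and Dkk proteins block Lrp5 and Lrp6 with the help of Kremen. In the airway, this pathway is known for its part in lung development and in the upkeep and repair of the epithelium by basal cells.

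The promoters of 3 ligand genes are shown first, to set abundant ligand genes beside a nearly silent one. They lie at the CG-rich end of the member promoters, and the CG dinucleotides of the 5 ligand genes at 0 are given after them. Promoters of RefSeq (GRCm38.p6, from 250 bases before to 50 after each start) were matched by symbol for 32 of the 50 members. Wnt4 and Wnt9a were among the abundant ligand transcripts, and Wnt3a, the neighbor of Wnt9a on chromosome 11, had few reads. The windows lie at chr4:137277385-137277684 on the plus strand (Wnt4), chr11:59306680-59306979 on the plus strand (Wnt9a) and chr11:59290702-59291001 on the minus strand (Wnt3a). Capitals mark CG dinucleotides, and each sequence is written in the direction of the gene.
Wnt4: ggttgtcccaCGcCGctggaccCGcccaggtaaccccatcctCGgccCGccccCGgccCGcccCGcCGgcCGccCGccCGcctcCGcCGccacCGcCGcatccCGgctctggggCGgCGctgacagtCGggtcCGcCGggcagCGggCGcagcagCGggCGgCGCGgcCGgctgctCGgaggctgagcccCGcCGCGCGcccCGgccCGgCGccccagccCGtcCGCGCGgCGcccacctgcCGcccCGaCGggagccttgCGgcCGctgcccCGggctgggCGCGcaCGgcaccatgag
Wnt9a: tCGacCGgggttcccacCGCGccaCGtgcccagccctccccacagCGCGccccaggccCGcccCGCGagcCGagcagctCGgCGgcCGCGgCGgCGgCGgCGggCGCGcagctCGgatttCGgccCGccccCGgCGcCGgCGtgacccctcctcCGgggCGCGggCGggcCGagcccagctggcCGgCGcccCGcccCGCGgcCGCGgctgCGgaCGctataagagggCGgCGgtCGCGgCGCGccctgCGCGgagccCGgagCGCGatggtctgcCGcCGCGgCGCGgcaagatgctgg
Wnt3a: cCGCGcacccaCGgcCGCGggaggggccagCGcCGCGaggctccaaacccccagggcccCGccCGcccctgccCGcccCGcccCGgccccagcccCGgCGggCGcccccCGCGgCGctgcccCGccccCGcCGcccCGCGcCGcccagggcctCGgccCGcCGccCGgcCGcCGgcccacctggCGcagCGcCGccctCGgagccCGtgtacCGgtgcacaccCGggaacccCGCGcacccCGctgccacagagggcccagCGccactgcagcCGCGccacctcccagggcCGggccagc
The Wnt4 promoter held 51 CG dinucleotides, the Wnt9a promoter 58 and the Wnt3a promoter 45, against a median of 7 over all 32851 promoters in the table. In the 13 promoters of tested members the median was 32, and in the 22 promoters of members that were not tested it was 24.5, so many of the members at or near 0 also had promoters above the median of all genes. Among the 5 ligand genes at 0 in all dishes, the promoter held 29 CG dinucleotides for Wnt9b, 27 for Wnt2, 26 for Wnt1, 24 for Wnt3 and 6 for Wnt8b. The letters CTTTGA, the core of the TCF/LEF motif, were searched on both strands and were present in 5 of the 35 member promoters (of Dkk1, Fzd1, Ror1, Wnt11 and Wnt5b) and in 16.0% of all promoters. The AP-1 letters TGANTCA, which read alike on both strands, were present in 2 of the 35 (Ror2 and 1 of the 3 Wnt5b promoters) and in 7.81% of all promoters. The shares were not tested, and a match of letters is not a bound site.

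A Wnt ligand repertoire of 4 genes made up nearly all ligand transcripts. Levels are compared between genes as normalized counts per kb of gene model, and a mean over all dishes is given with its SD (n = 12 dishes). Wnt4 (ENSMUSG00000036856.4, chromosome 4 from 137277489 to 137299726, GRCm38), a ligand known from kidney and gonad development, had 1147 ± 193 normalized counts per kb. Wnt7b (ENSMUSG00000022382.15, chromosome 15 from 85535437 to 85582473), a ligand of the developing lung epithelium, had 799 ± 131. Wnt4 lay above Wnt7b in 12 of 12 dishes, although the ranges over dishes overlapped. Wnt10a, known from skin, teeth and other ectodermal tissue, had 297 ± 50.0 and Wnt9a, a ligand of joints and cartilage, 123 ± 17.2 normalized counts per kb. These 4 levels stood in the same order in every dish, and Wnt10a and Wnt9a overlapped neither with each other nor with Wnt7b. Wnt11, which signals to cell movement, followed far below at 5.69 ± 1.29 normalized counts per kb.

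Expressed as shares of all ligand transcripts per kb, Wnt4 held 47.9% ± 3.47, Wnt7b 33.6% ± 4.15, Wnt10a 12.6% ± 2.33 and Wnt9a 5.19% ± 0.573 (SD, n = 12). The other 15 ligand genes together contributed between 0.556% and 1.02% in any dish. Wnt4 and Wnt7b together made up between 76.3% and 84.9%, and neither group of dishes stood apart. The summed level of all ligands was 2402 ± 320 normalized counts per kb after ablation and 2367 ± 270 in the control (SD, n = 6 each).

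**Figure D1:**
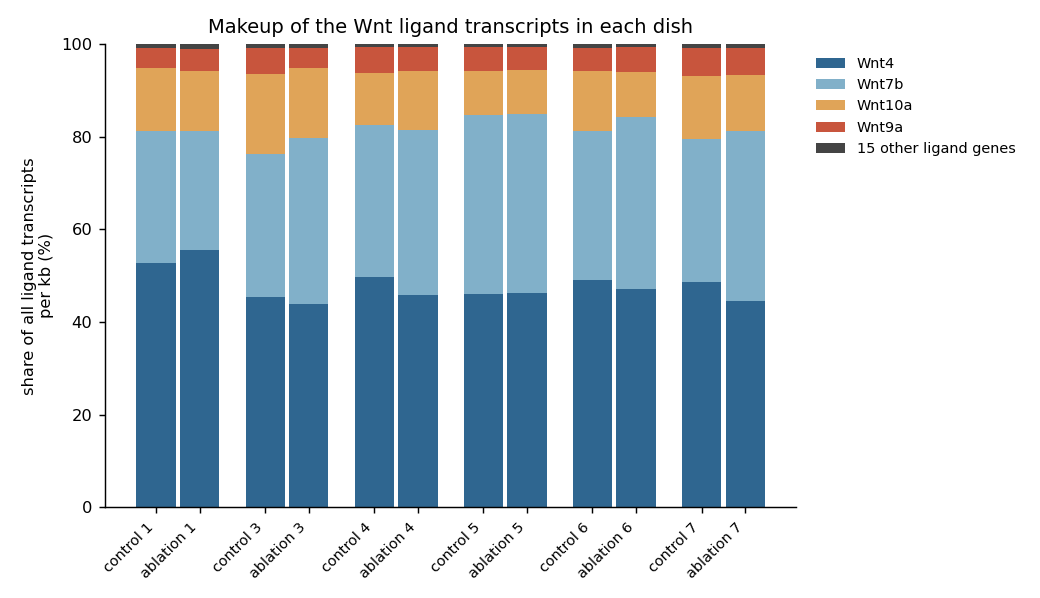
Share of each Wnt ligand in the summed ligand transcripts (normalized counts per kb of gene model, in percent, vertical axis) in each of the 12 dishes, drawn as stacked bars with control and ablation dishes of a pair side by side. Wnt4 and Wnt7b make up 76.3% to 84.9% of every bar, and the 15 other ligand genes at most 1.02%.

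Of the remaining 14 ligand genes, 5 were at 0 in all dishes (Wnt1, Wnt2, Wnt3, Wnt8b and Wnt9b). A count of 0 allows up to 3 reads, which is 2.82 to 3.51 normalized counts depending on the dish and covers counting error only. Wnt5b and Wnt6 had reads in every dish, with 6.14 to 14.6 and 3.07 to 9.75 normalized counts. Wnt10b had 0 to 6.76 normalized counts, Wnt7a 0 to 4.94, Wnt16 0 to 2.92, Wnt5a 0 to 2.05 and Wnt2b 0 to 1.93, and Wnt8a had a read in 1 dish only. Wnt5a and Wnt2, which in lung are known as ligands of the mesenchyme, were thus at or near 0.

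Wnt3a was the ligand gene under the minimum that differed most between pairs. It had 32.2 normalized counts in ablation 1 and 25.1 in control 1. In the other 10 dishes it had 0 to 11.3. Both dishes of pair 1 therefore lay above all others, whichever treatment they had received. Wnt3a is also a transgene of the L-WRN cells whose supernatant was in the growth medium. The other L-WRN transgenes had 0 to 5.84 (Rspo3) and 0 to 1.98 (Nog) normalized counts, with no dish above these values. A contribution of L-WRN material to the Wnt3a reads was not tested.

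Wnt genes often lie side by side in the genome, and 2 such pairs held an abundant and a nearly silent ligand. Wnt9a and Wnt3a are transcribed away from each other on chromosome 11 (GRCm38) with 16175 bases between the gene models, and had 88.5 to 145 and 0 to 11.7 normalized counts per kb. Wnt10a and Wnt6, in the same direction on chromosome 1 with 6193 bases between them, had 196 to 358 and at most 4.45. Neither pair overlapped in level in these dishes. In both other pairs of neighbors neither gene was expressed to any extent, with Wnt1 at 0 beside Wnt10b at 0.751 normalized counts per kb (mean of 12 dishes) on chromosome 15, and Wnt3 and Wnt9b both at 0 on chromosome 11.

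The secretion genes were expressed as well. Wls (ENSMUSG00000028173.10, chromosome 3 from 159839672 to 159938664), the carrier of Wnt proteins, was the most abundant of the 50 members with 1542 ± 125 normalized counts per kb (SD, n = 12), and 93.7% of all 13792 tested genes lay below it. Porcn, the acyltransferase, had 129 ± 21.7 normalized counts per kb. Wls varied little between dishes, with 12596, 13009 and 15544 normalized counts (lowest, median and highest) after ablation and 11907, 13645 and 14320 in the control.

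All 10 Frizzled receptor genes passed the minimum. Fzd1 (ENSMUSG00000044674.6, chromosome 5 from 4753839 to 4758035) led with 453 ± 47.4 normalized counts per kb and held 41.9% ± 3.87 of the Frizzled transcripts. Fzd7, a receptor known from stem cells of several epithelia, followed with 206 ± 16.5 and 19.1% ± 1.33. Fzd1, Fzd7 and Fzd6 did not overlap in their ranges over dishes. Fzd6, which acts in planar polarity of skin and hair, had 97.2 ± 9.90 normalized counts per kb, Fzd2 87.9 ± 12.1, Fzd8 79.5 ± 9.90 and Fzd4, also the receptor of Norrin, 63.9 ± 16.2. These 4 neighbors in the order overlapped, and Fzd6 lay above Fzd2 in 10 of 12 dishes, Fzd2 above Fzd8 in 9 and Fzd8 above Fzd4 in 9. Fzd10 (ENSMUSG00000081683.5, chromosome 5 from 128600844 to 128604093) had 36.4 ± 17.3 and Fzd5 32.3 ± 3.62 normalized counts per kb, with Fzd10 higher in 6 of 12 dishes, so that no order could be given. Fzd3, a receptor of axon guidance and planar polarity, had 19.5 ± 3.81 and Fzd9 5.18 ± 1.19.

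The coreceptors Lrp6 and Lrp5 were close to each other with 246 ± 15.3 and 232 ± 23.4 normalized counts per kb, and Lrp6 was higher in 8 of 12 dishes. Ror2 had 11.7 ± 2.86 and Ror1 1.87 ± 0.980 normalized counts per kb, and Ror2 was the higher in all 12 dishes.

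On the side of the secreted modulators, little was expressed. Of the 9 inhibitor genes only Sfrp1, which binds Wnt proteins outside the cell, was tested, with 11.2 ± 3.76 normalized counts per kb. Dkk1, Dkk4, Sfrp5 and Wif1 were at 0 in all dishes. Dkk3 had 1.91 to 6.93 normalized counts, Dkk2 0 to 1.88, Sfrp2 0 to 1.17 and Sfrp4 0 to 0.957. The inhibitor genes summed to 13.7 ± 3.16 normalized counts per kb after ablation and 11.8 ± 4.69 in the control (SD, n = 6 each), against at least 1981 for the ligands in every dish. Kremen1, the receptor through which Dkk proteins withdraw Lrp6, was in contrast abundant with 384 ± 34.6 normalized counts per kb, while Kremen2 had 0 to 8.69 normalized counts. Of the R-spondin genes, Rspo1 and Rspo4 were at 0, Rspo2 had a read in 1 dish and Rspo3 had at most 5.84 normalized counts.

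**Figure D2:**
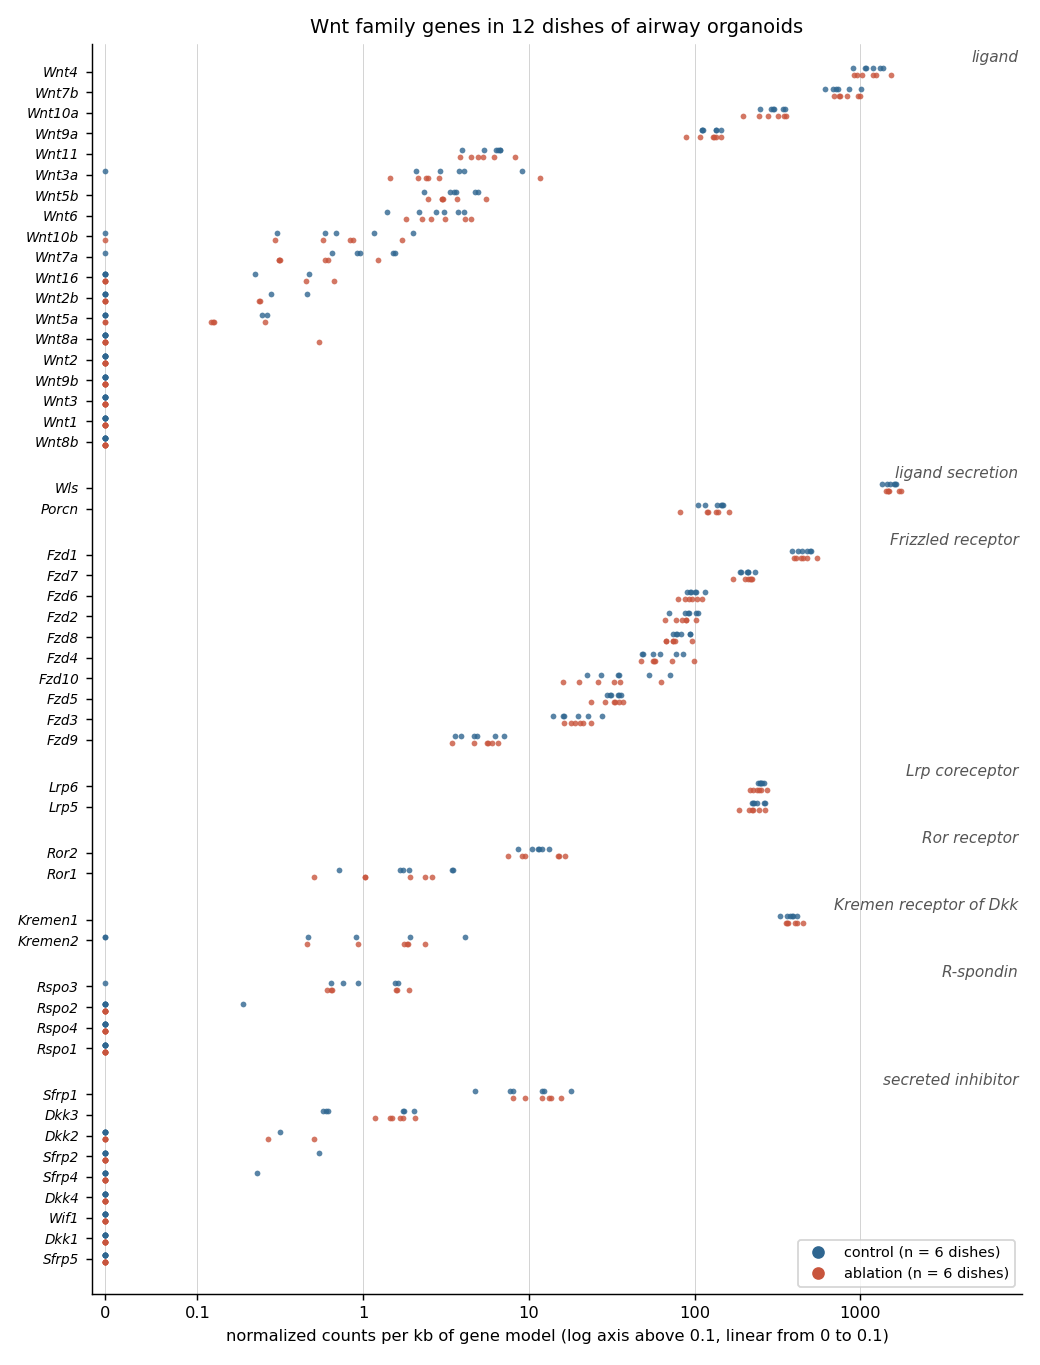
Level of each of the 50 genes in each of the 12 dishes, in normalized counts per kb of gene model (horizontal axis, logarithmic above 0.1 and linear from 0 to 0.1), ordered by role and mean level, with control dishes in blue and ablation dishes in red. Wls, Wnt4 and Wnt7b lie highest, all 10 Frizzled genes are expressed, and the R-spondins and all secreted inhibitors other than Sfrp1 lie at or near 0 in both groups.

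The cell types in the dishes were checked with marker genes. Of the basal cell markers, Krt5 had 229016 to 340094 normalized counts and Krt14 210725 to 274982, above all other markers checked, while Trp63 had 6443 to 11436, Krt15 3229 to 15198 and Ngfr 1867 to 4039. Of the secretory markers, Cyp2f2 reached 26191 to 78597 normalized counts, but Scgb3a1 had 39.0 to 126, Scgb1a1 at most 9.65 and Scgb3a2 at most 21.4. Of the ciliated markers Rsph1 had 99.0 to 152 normalized counts, Foxj1 2.92 to 18.1, Ccdc39 2.96 to 15.4 and Dnah5 0.988 to 6.76, and Tekt1 was at 0. The 9 stromal markers together had a median of 28.4 and at most 48.3 normalized counts per dish, led by Pdgfra with 5.99 to 24.5 and Col1a1 with 5.12 to 16.9. Dcn had at most 17.4 and Pdgfrb at most 5.12, Acta2 had at most 3.75, and Col3a1, Lum, Postn and Col1a2 had at most 0.999 each. The 3 endothelial markers summed to 2.96 to 14.3 with Kdr at 0. Of the immune markers Cd68 was the most abundant with 88.8 to 158 normalized counts, and Ptprc had 5.92 to 22.4. The alveolar marker Sftpc was at 0 while Hopx had 14293 to 20222.

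Ablation against control was the comparison of the study, and asks which genes respond early to the loss of 10 cells. No member of the Wnt family passed the threshold. In limma's model with condition and library set, 0 of the 23 tested members had a Benjamini-Hochberg adjusted p under 0.05 over all 13792 tested genes, beside 0% of all genes, and 0 had an unadjusted p under 0.05, beside 7.85% of all genes. In the model with the pair of dishes as replicate block, 0 of 23 members were called, beside 1.09% of all genes (150 genes), and 2 had an unadjusted p under 0.05, beside 17.6%. With library set 1 alone, which leaves out the controls with conflicting titles, the paired model called 0 members, beside 0.116% of all genes (16 genes), and 1 member had an unadjusted p under 0.05, beside 13.9%. This was Kremen1 (0.12 on the log2 scale, adjusted p = 0.317). With library set 2 alone it called 0 members, beside 0.79% of all genes (109 genes), and 5 had an unadjusted p under 0.05, beside 13%. These were Fzd10 (-0.55), Fzd8 (-0.26), Fzd2 (-0.25), Wnt7b (0.18) and Sfrp1 (0.60), with adjusted p-values from 0.168 to 0.318 in limma. With edgeR, the 9 libraries with recovered reads gave 0 members called, beside 0% of all genes. There, 0 members had an unadjusted p under 0.05, beside 5.85% of all genes (807 genes).

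Fold changes of the members were small. The log2 fold change (ablation over control, on the scale of log2 of normalized counts + 1) lay below 0 for 15 members and above 0 for 8. Of all tested genes, 48.5% lay above 0. The median was -0.031 for the members beside -0.0036 over all tested genes. Its median size without the sign was 0.0733 for the members and 0.0730 for all genes. With edgeR on the 9 libraries with recovered reads the balance turned, with 14 members above 0 and 9 below. The member median was 0.020 there, beside -0.0045 over all genes. The 95% interval of the library set model stayed within a 1.5-fold change in either direction for 20 of the 23 members, and within a 2-fold change for 22. The exceptions at 1.5-fold were Ror1, Fzd10 and Sfrp1, which had few counts or varied strongly. All 6 pairs moved the same way in 0 of 23 members, beside 9.8% of all genes, and the groups overlapped in all 23, while 0.457% of all genes had groups that did not overlap.

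Among the ligands, Wnt4 had 3836, 4634 and 6381 normalized counts (lowest, median and highest) after ablation and 3770, 4777 and 5708 in the control. The change on the log2 scale was -0.025 (SE 0.130, adjusted p = 0.980 in limma's library set model), and 3 pairs lay on each side of 0. Wnt7b had 3417, 3880 and 4870 normalized counts after ablation and 2997, 3548 and 4904 in the control. The groups overlapped almost fully in both ligands. The log2 fold change of Wnt7b was 0.12 (SE 0.0512, adjusted p = 0.238 in the paired limma model, unadjusted p = 0.0333), and ablation was higher in 4 of 6 pairs. Wnt10a had 484, 733 and 883 normalized counts (lowest, median and highest) in ablation dishes and 608, 738 and 864 in control dishes, and Wnt9a 295, 432 and 480 against 366, 409 and 483. Wnt11 had 15.8 to 34.0 after ablation and 16.4 to 27.7 in the control. None of these 3 differed beyond the spread of the dishes, with log2 fold changes of -0.090, -0.031 and -0.13.

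Wls and Porcn likewise overlapped between groups. Wls had a log2 fold change of 0.027 (95% interval -0.12 to 0.17). Porcn had 246, 380 and 483 normalized counts (lowest, median and highest) after ablation against 316, 420 and 444 in control dishes, and its log2 fold change was -0.098.

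Fzd10 showed the largest difference among the receptors with over 50 normalized counts per dish. It had 52.3, 95.6 and 204 normalized counts (lowest, median and highest) after ablation and 73.1, 113 and 232 in the control. Ablation was lower in 5 of 6 pairs, by a log2 ratio between -0.18 and -0.79, and higher in pair 5 by 0.27. In the model with the replicate block the log2 fold change was -0.36 (SE 0.131, unadjusted p = 0.0160, adjusted p = 0.181), and in the library set model the adjusted p was 0.742, so the difference did not pass the threshold in either. With each pair left out in turn, the paired model gave log2 fold changes between -0.49 and -0.28 and adjusted p-values between 0.104 and 0.352.

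The other 9 Frizzled genes had log2 fold changes between -0.14 (Fzd8) and 0.082 (Fzd9). Fzd1 had 1672, 1871 and 2282 normalized counts after ablation and 1615, 1922 and 2109 without it, and the 95% interval of its log2 fold change reached from -0.16 to 0.15. Fzd7 had 770, 964 and 1010 and 853, 942 and 1043. Both main receptors overlapped between the groups. Fzd8 had 401, 443 and 574 after ablation against 441, 481 and 561, and was lower in 4 of 6 pairs, with an adjusted p of 0.284 in the paired limma model. Fzd2 had 241 to 373 normalized counts after ablation against 258 to 384, and Fzd6 381 to 531 against 435 to 556. Both were lower in 4 of 6 pairs, with log2 fold changes of -0.11 and -0.073. Over all 12 dishes Fzd4 had 320 to 668 normalized counts, Fzd3 179 to 352, Fzd5 165 to 254 and Fzd9 7.92 to 16.3. Fzd3, Fzd4 and Fzd9 were higher in 3 pairs and lower in the other 3, and Fzd5 was higher in 4 of 6 pairs although its mean log2 ratio was -0.061.

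Lrp6 was lower after ablation in 5 of 6 pairs, with 2936, 3284 and 3742 normalized counts against 3306, 3404 and 3558, and differed by -0.058 on the log2 scale (paired limma model, adjusted p = 0.539). For Lrp5, with 1811, 2170 and 2573 normalized counts against 2151, 2263 and 2576, the log2 fold change was -0.090 (adjusted p = 0.371). Kremen1 had 2736 to 3501 normalized counts after ablation against 2514 to 3193, and was higher in 4 of 6 pairs at a log2 fold change of 0.061. Neither coreceptors nor Kremen1 passed the threshold. Ror2 had 31.6 to 69.9 normalized counts against 36.5 to 56.3, with 3 pairs on each side of 0. Ror1 was lower in 5 of 6 pairs, but with 2.92 to 15.0 normalized counts after ablation and 4.09 to 20.1 in the control its 95% interval reached from -1.32 to 0.47. Sfrp1, the only inhibitor tested, had 35.0, 55.0 and 68.5 normalized counts after ablation and 20.7, 43.7 and 78.8 in the control. Sfrp1 was the higher in 5 of 6 pairs. Its log2 fold change of 0.28 had an interval from -0.31 to 0.86. Without pair 3 it was 0.56 (adjusted p = 0.702 in limma's library set model). It was -0.042 in library set 1 alone and 0.60 in set 2 alone, and the interaction had an adjusted p of 0.777 in limma.

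**Figure D3:**
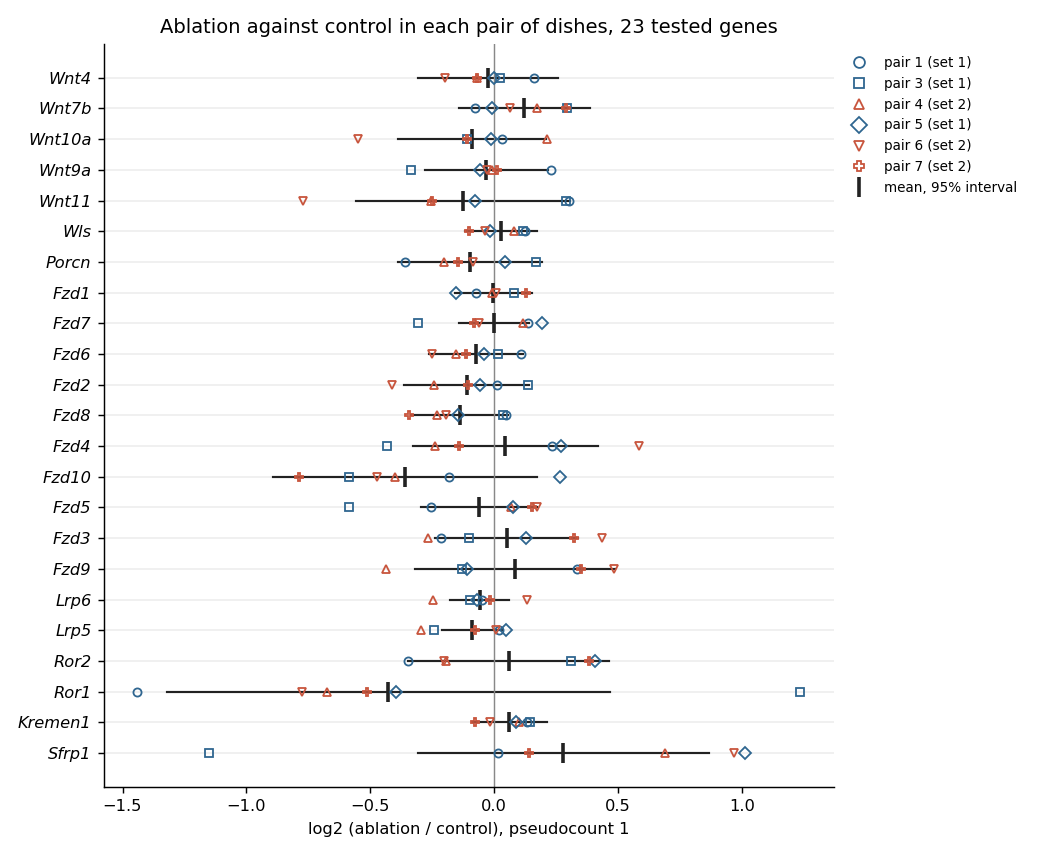
Log2 ratio of ablation to control (horizontal axis, pseudocount 1) for the 23 tested genes in each of the 6 pairs of dishes, with pairs of library set 1 in blue and of set 2 in red, and the mean with its 95% interval from the library set model in black. Every interval includes 0, and the points of each gene lie on both sides of 0.

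Levels of most members varied from pair to pair. For 18 of the 23 tested members (78.3%) the range of the 6 pair means was larger than the largest difference between the dishes of any pair, and this held for 65.4% of all tested genes. The median range of the pair means was 0.558 on the log2 scale for members and 0.379 for all tested genes. The median of the largest difference within a pair was 0.360 and 0.292. Pair 1 had the highest mean in 10 of the 23 members and pair 3 the lowest in 10, although both come from the same passage and library set. The share of all tested genes with this order was not counted, so it may not be particular to the members.

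**Figure D4:**
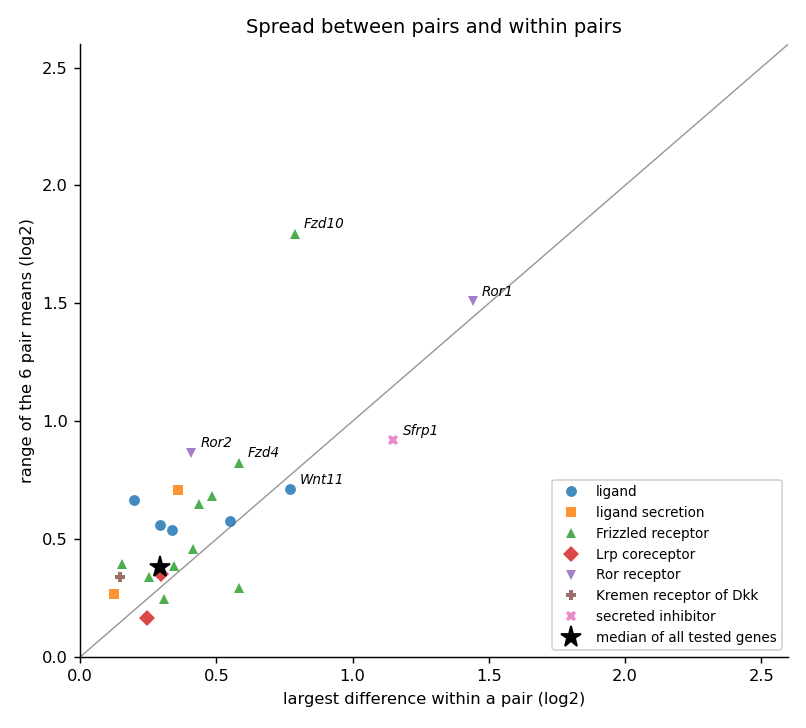
Range of the 6 pair means (vertical axis, log2) against the largest difference within a pair (horizontal axis, log2) for the 23 tested genes by role, with the medians of all tested genes as a star and equality as a line. 18 of the 23 genes lie above the line, and Fzd10 has the widest range of pair means at 1.80.

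Fzd10 had the widest range, with pair means spanning 1.80 on the log2 scale. At passage P2+14 it had 115 to 232 normalized counts, at P2+15 85.1 to 113 and at P2+16 52.3 to 113 (4 dishes each). Both dishes of pair 1, the pair with the shortest culture time of its passage, were the highest of all 12. The basal cell marker Krt15 also had its highest values in pair 1, with 15198 normalized counts in ablation 1 and 12394 in control 1. At P2+16 Krt15 had 3229 to 5918. The basal marker Ngfr (4039 and 3085) and the secretory marker Cyp2f2 (78597 and 66645) were highest in ablation 1 and control 1 as well. Krt5 and Trp63 were highest in ablation 1, but in control 1 (308751 and 7810) they lay below control 3 (322785 and 8928). Krt14 was lower in pair 1 (233978 and 226941) than in both dishes of pairs 3 and 5. Fzd4 and Wnt3a were also highest in pair 1. Fzd4 had 567 and 668 normalized counts in control 1 and ablation 1, and 320 to 517 in the other 10 dishes. Porcn went the other way and was lowest in pair 1, with 316 (control) and 246 (ablation) normalized counts. Wnt7b was highest at passage P2+15, with 4201 to 4904 normalized counts in its 4 dishes and 2997 to 4085 in the other 8.

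Passage P2+14 occurs only in library set 1 and P2+16 only in set 2, while P2+15 occurs in both (pairs 5 and 4), so library set and passage can be told apart only in part. Culture days were 14, 20 and 15 in set 1 and 14, 18 and 19 in set 2. Between the library sets (set 2 minus set 1, limma on the 6 pair means), 0 of 23 members were called, beside 0% of all genes, and 2 had an unadjusted p under 0.05, beside 9.38% of all genes. These were Fzd10, with a log2 difference of -0.83 (SE 0.302, adjusted p = 0.494), and Lrp5, with -0.21 (SE 0.0646, adjusted p = 0.471). In the same limma model the basal cell markers differed by -0.93 (Krt15), -0.30 (Krt5), -0.19 (Trp63), -0.16 (Krt14) and 0.0033 (Ngfr). None of these markers passed the threshold (adjusted p = 0.471 for Krt15 and Krt5 in limma). A part of basal cells in the difference of Fzd10 was not tested. The response to ablation in both library sets was compared with an interaction term beside the replicate block. Here 0 of 23 members were called, beside 0.00725% of all genes (1 gene). Of the members, 1 had an unadjusted p under 0.05, beside 7.88% of all genes. This was Wnt4, whose response differed by -0.17 on the log2 scale (set 2 minus set 1, limma, adjusted p = 0.630). In set 1 the log2 ratios of Wnt4 were 0.16, 0.025 and 0.00060 in pairs 1, 3 and 5, and in set 2 -0.068, -0.20 and -0.071 in pairs 4, 6 and 7.

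**Figure D5:**
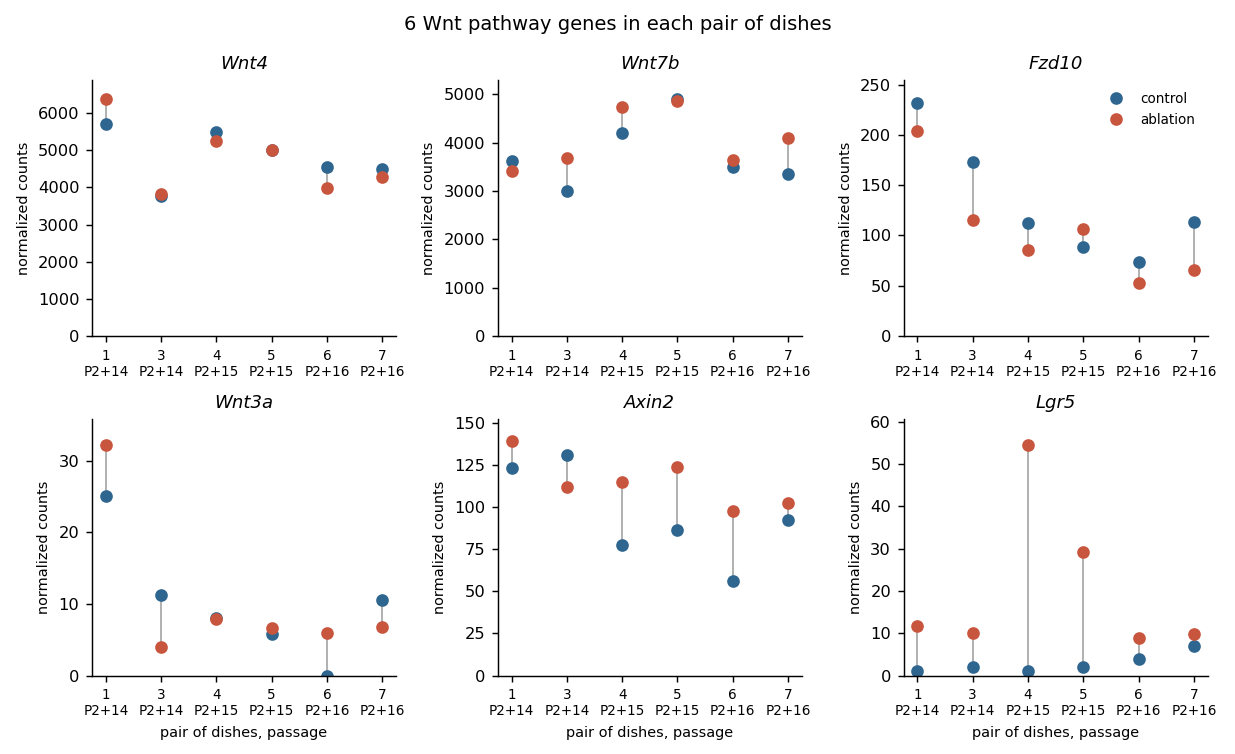
Normalized counts (vertical axes, from 0) of 6 Wnt pathway genes in each pair of dishes (horizontal axis, with the passage), control in blue and ablation in red, dishes of a pair joined by a line. Wnt4, Wnt7b, Fzd10 and Wnt3a differ mainly between pairs, whereas Lgr5 is higher after ablation in all 6 pairs and Axin2 in 5 of 6.

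The rest of the pathway was followed with a list of 62 further genes, of which 46 were tested. In both models 0 of 46 were called, beside 0% of all genes in the library set model and 1.09% (150 genes) in the paired model. At an unadjusted p under 0.05 the library set model gave 4 higher and 1 lower, and the paired model 5 higher and 3 lower, beside 4.15% higher and 3.7% lower, and 8.78% higher and 8.86% lower, of all genes. The median log2 fold change of the 46 genes was -0.033. Between the library sets 0 of 46 were higher and 6 lower at an unadjusted p under 0.05, beside 5.06% and 4.31% of all genes. In the interaction 1 was higher and 3 lower, beside 3.69% and 4.19%. In either comparison 0 were called, beside 0% of all genes between library sets and 0.00725% in the interaction.

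All 6 pairs lay on the same side of 0 in 3 of the 46 tested pathway genes, beside 9.8% of all genes. These 3 were also among the 8 pathway genes with an unadjusted p under 0.05 in the paired limma model, of which none passed the threshold. Daam1, a formin of the planar polarity branch, had 2234 to 2615 normalized counts after ablation against 1946 to 2247 in the control, and the log2 ratio was above 0 in 6 of 6 pairs with a mean of 0.15 (SE 0.0400, adjusted p = 0.0940 in the paired limma model). Csnk1e, a casein kinase of the pathway, had 1926 to 2063 normalized counts against 1721 to 2030 and a mean log2 ratio of 0.13, above 0 in 6 of 6 pairs (SE 0.0377, adjusted p = 0.120). Ctnnbip1, which binds beta-catenin and keeps it from TCF factors, had 569 to 695 normalized counts against 645 to 716 and a mean log2 ratio of -0.14, below 0 in 6 of 6 pairs (SE 0.0547, adjusted p = 0.199). The ranges of both groups overlapped in each of the 3, for Daam1 by little. Gsk3a, a kinase of the destruction complex, was at -0.085 and lower in 5 of 6 pairs (adjusted p = 0.267), and Vangl2, a planar polarity membrane protein, at -0.17 and lower in 4 (adjusted p = 0.270). The other 3 were Axin2, Tcf7 and Myc. In limma's library set model the adjusted p-values of these 8 genes lay between 0.537 (Csnk1e) and 0.692 (Gsk3a). Of the 4 pathway genes with an unadjusted p under 0.05 in the interaction, Myc was the higher one, and its response differed by 0.41 on the log2 scale (set 2 minus set 1, SE 0.0705, limma, unadjusted p = 6.32e-05, adjusted p = 0.218). The log2 ratios of Myc were -0.054, 0.029 and -0.065 in pairs 1, 3 and 5 of set 1, and 0.32, 0.41 and 0.41 in pairs 4, 6 and 7 of set 2. The other 3 of these 4 were lower, namely Vangl2 (-0.33, adjusted p = 0.603), Gpc4 (-0.25, adjusted p = 0.570) and Ptk7 (-0.17, adjusted p = 0.603).

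Ctnnb1, which encodes beta-catenin, had 19809 to 23893 normalized counts after ablation and 20827 to 23367 in control dishes, which is -0.037 on the log2 scale (SE 0.0403, paired limma model, adjusted p = 0.669). Axin2, a feedback gene that is often used to read Wnt activity, had 97.7 to 139 normalized counts after ablation (mean 115 ± 15.1, SD, n = 6) and 56.3 to 131 in the control (94.5 ± 28.3). Axin2 lay higher in 5 of 6 pairs by a mean log2 ratio of 0.33 (SE 0.132, adjusted p = 0.222 in the paired limma model, unadjusted p = 0.0276). Axin2 did not pass the threshold there or in limma's library set model (adjusted p = 0.629). In the list of 9 feedback and target genes, which does not hold Axin2, 7 were tested, 0 were called and the log2 fold changes lay on both sides of 0. Notum, which inactivates Wnt proteins, was at -0.17 and lower in 5 of 6 pairs, Ccnd1 at -0.063 and lower in 4, and Apcdd1 at 0.024 although lower in 4. Tnfrsf19 was at 0.35 and higher in 5 of 6 pairs, and Myc (0.18, adjusted p = 0.225 in the paired limma model), Nkd2 (0.14) and Cd44 (0.076) were each higher in 4. Of the list, Nkd1 stayed under the minimum and Sp5 was at 0. Tcf7, Tcf7l1, Lgr6, Daam1, Csnk1e, Ctnnbip1, Gsk3a, Vangl2, Gpc4, Ptk7 and the genes of this list were named after their values were seen.

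Of the receptors and ligases on the R-spondin side, Lgr4 was abundant with 2723 to 5900 normalized counts. Rnf43 had 524 to 722 and Znrf3 489 to 620. These 3 genes had log2 fold changes of 0.093, 0.026 and -0.0021. Lgr6, a further receptor of the same list, had 731 to 1901 normalized counts and a log2 fold change of 0.24, with 5 of 6 pairs above 0 (SE 0.246, adjusted p = 0.668 in the paired limma model). Its interaction was -0.81 (SE 0.376, adjusted p = 0.675). Of the TCF/LEF factors, Tcf7l2 had 273 to 388 normalized counts and a log2 fold change of -0.029, Tcf7l1 had 198 to 442 and -0.025, and Lef1 had at most 1.98 normalized counts. Tcf7 had 133 to 176 normalized counts after ablation against 109 to 184, and lay higher in 5 of 6 pairs by a mean log2 ratio of 0.28 (SE 0.102, paired limma model, unadjusted p = 0.0159, adjusted p = 0.180). In limma's library set model its adjusted p was 0.604.

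Lgr5, an R-spondin receptor and Wnt target of several epithelial stem cells, was under the count minimum but was higher after ablation in 6 of 6 pairs. It had 8.89 to 54.4 normalized counts after ablation and 0.965 to 7.01 in the control, and the groups did not overlap. The dishes of pair 7 were the closest, with 9.73 and 7.01, and ablation 4 was the highest. In fits without the minimum its log2 fold change was 2.35 (SE 0.459, adjusted p = 0.0171 over 28534 genes in the paired limma model), while the library set model gave an adjusted p of 0.0907. The 3 pairs of library set 1, which leave out the controls with conflicting titles, are among these 6 and add no separate support. Lgr5 was chosen with this difference known. Being under the minimum, it was not in the fits with pairs left out, with single library sets or with plain moderation. Trp63, the basal cell marker, was also higher in 6 of 6 pairs, by 0.39 on the log2 scale (SE 0.0525). The adjusted p was 0.00825 in the paired limma model and 0.187 in the library set model, and the paired value was 0.0541 without pair 4, 0.110 in library set 1 alone and 0.121 with plain in place of robust moderation. The other 4 basal cell markers did not pass the threshold in either model. Their log2 fold changes were 0.019 (Krt5, higher in 4 of 6 pairs), 0.047 (Krt14, higher in 5), -0.27 (Krt15, lower in 4) and -0.11 (Ngfr, lower in 4). The p63 promoter of the reporter was in both groups, and a part of basal cell number in any of these values was not tested.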

How the data were processed

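Reads had been processed by the authors with an nf-core RNA-seq pipeline, a GENCODE annotation of GRCm38.p6 and DESeq2. The deposited signal values are normalized counts: the authors scaled each library's reads by a DESeq2 size factor. The same table holds score columns, p-values and log2 fold changes of the authors' own comparison, which were not used here. In each library, 100% of the values up to 20 times a step, the size of 1 read, were whole multiples of it within 0.1 of a step. For 9 libraries whole reads were recovered (23631212 to 29775699 per library). For ablation 3, ablation 4 and control 4 the step was too near 1 for the rule applied, so counts could not be the basis of the main test.

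Genes reaching 10 normalized counts in 6 or more libraries were tested with limma 3.58.1 (R 4.3.3) on log2 values with a pseudocount of 1, with condition and library set as terms, a variance trend and robust moderation, and Benjamini-Hochberg adjustment over 13792 genes at a threshold of 0.05. A second model replaced the library set by the pair as replicate block. Pairing follows the shared passage and culture day in the titles. Deviations of same-numbered dishes from their group means correlated across genes with r from 0.205 to 0.618. With deviations taken within each library set, r was 0.199 to 0.578. With other numbers the average r was -0.135 to -0.025. Centering on the group mean pushes these averages below 0, so they say nothing on the pairing. The block raised the number of genes called from 0 to 150. The pairing is taken from labels only, and nothing states that dishes came from separate animals, so p-values measure the spread between dishes, which may be technical. The dishes come from continued passage of the organoids. Models were tested on simulated data with changes of 2-fold or more, which does not show how they find smaller changes. edgeR 4.0.16 was run on the 9 libraries with recovered reads. The second factor of the authors' model was a batch, and which libraries formed each batch is not given in the sources used here. The library set stands in for it, from the 2 series of library numbers in the labels. The paper reports differentially expressed genes after ablation, Trp63 among them, whereas the library set model called 0. The library set model is thus not a repeat of the authors' test. Levels per kb use the gene length of the deposited table, which equals the union of exons for all 50 members. Strand was kept in the library preparation.

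Members, lists and tests were chosen with earlier results of these data known. Every tested member is named with values and untested members with their range. Of the 62 other pathway genes, Ctnnb1, Axin2, Lgr4, Lgr5, Rnf43, Znrf3, Tcf7l2 and Lef1 are named, with any that passed the threshold. Trp63, Tcf7, Tcf7l1, Lgr6, Daam1, Csnk1e, Ctnnbip1, Gsk3a, Vangl2, Gpc4, Ptk7 and the feedback and target genes were named after their values were seen.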

Additional observations from a re-analysis of the deposited data

Results flagged for a closer look

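Dishes that stood apart from the other 5 of their group by Dixon's criterion were looked for in 100 groups of 6 dishes (the 23 tested members, Wnt3a, and the other pathway genes named that had reads). This was met in 7 groups, and chance gives about 1 in 20.
Fzd8 had 574 normalized counts in ablation 1 and 401 to 453 in the other ablation dishes. Wnt3a had 32.2 normalized counts in ablation 1 and 4.00 to 7.92 in the others, and control 1 of the same pair was likewise the highest control at 25.1. Of the target genes, Notum had 26.3 normalized counts in ablation 1 against 4.87 to 12.9 in the other ablation dishes, and Apcdd1 had 1230.2 against 326 to 629. Rnf43 had 722 normalized counts in control 1 and 524 to 581 in the other controls. In control 3, Lgr4 had 2723 normalized counts against 4658 to 5248 in the others, and Tcf7l2 had 273 against 348 to 382. In all, the 7 values fall into both dishes of pair 1 and into control 3. No cause of these values was tested.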

How the results depend on the processing

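No member was called in any of the 45 fits over all comparisons and alternatives, and 8 of the 23 members (Fzd8, Fzd9, Fzd10, Kremen1, Lrp5, Porcn, Ror1 and Wnt7b) kept the direction of their log2 fold change after ablation under all 16 alternatives, with a lowest adjusted p there of 0.168 (Fzd10 in library set 2 alone, limma). Over all fits of ablation against control, the paired ones included, the lowest adjusted p of a member was 0.104 (Fzd10, paired limma model without pair 5). Counts of genes depended on the model. The library set model called 0 genes, 150 with the replicate block and 3 without the filter on low values. With the block, 356 were called without the filter (an alternative chosen after seeing the data, as is the next), 0 with plain eBayes (2190 at an unadjusted p under 0.05), 16 in library set 1 alone and 109 in set 2 alone, and between 8 (without pair 4) and 176 when single pairs were left out, with 90 without pair 3 and 77 without pair 5. Between library sets 3 genes were called without the filter. The interaction called 1 gene, 0 with no replicate block (231 at an unadjusted p under 0.05) and 53 without the filter. The causes were not tested.

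Log2 fold changes changed sign for 15 of the 23 members, most of them near 0, with Sfrp1 (0.28) and Wnt11 (-0.13) the farthest from 0. With edgeR on the 9 recovered libraries this held for Fzd1 (0.010), Fzd5 (0.020), Fzd7 (0.027), Lrp6 (0.0052), Wnt4 (0.068) and Wnt9a (0.063). In library set 1 alone it held for Fzd2 (0.030), Fzd3 (-0.063), Fzd6 (0.027), Fzd7 (0.0076), Sfrp1 (-0.042), Wnt11 (0.17) and Wnt4 (0.062), and in set 2 alone for Fzd1 (0.043), Fzd5 (0.13), Ror2 (-0.0053) and Wls (-0.020). Quantile normalization gave Fzd7 at 0.0019 and TMM factors at 0.0015. With single pairs left out, signs changed within the ranges -0.030 to 0.027 (Fzd1), -0.027 to 0.11 (Fzd3), -0.062 to 0.14 (Fzd4), -0.11 to 0.043 (Fzd5), -0.039 to 0.061 (Fzd7), -0.011 to 0.14 (Ror2), -0.15 to 0.0019 (Wnt10a), -0.21 to 0.0015 (Wnt11), -0.062 to 0.0095 (Wnt4) and -0.084 to 0.030 (Wnt9a). In the fits without the filter, 0 of 39 members with reads were called.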
